A study of Ovis aries with 6 samples.

Results

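The genes described here encode the enzymes of oxidative phosphorylation, and they were followed through the cell classes of the sheep rumen lining. They were the matrix rows whose sheep gene symbol starts with NDUFA, NDUFB, NDUFC, NDUFS, NDUFV, SDH, UQCR, ATP5 or COX followed by 4 to 8, together with the 13 protein genes of the mitochondrial genome. Placeholder LOC symbols and the NDUFAF assembly factors were left out. This gave 79 of 26741 genes, 66 of them nuclear and 13 mitochondrial. Among the nuclear genes 38 are subunits of complex I by name, 4 of complex II, 1 of complex III (UQCRH), 1 of complex IV (COX5A) and 16 of complex V. The other 6 are 4 assembly factors of complex II (SDHAF1 to SDHAF4), the paralog NDUFA4L2 and the inhibitor ATP5IF1. The mitochondrial genes encode 7 subunits of complex I, 1 of complex III, 3 of complex IV and 2 of complex V. Other subunits of complexes III and IV were not analysed here.

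In oxidative phosphorylation, complexes I and II take electrons from NADH and succinate, complex III passes them to cytochrome c, and complex IV hands them to oxygen. Complexes I, III and IV pump protons across the inner mitochondrial membrane, and complex V, the ATP synthase, uses the gradient to make ATP. All complexes except complex II combine subunits from both genomes, so the nuclear transcripts are made in the nucleus and the mitochondrial ones inside the organelle. The rumen wall is a stratified epithelium whose basal cells divide, move up through spinous and granular layers and cornify. Its living layers take up and oxidise short-chain fatty acids from fermentation.

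Nuclear RNA from frozen ventral rumen epithelium of 6 male lambs was counted in 10x Genomics droplet libraries, 1 library per animal. The series is about supplementary feeding of sheep on pasture, and the labels name the treatments MGNS (3 animals) and MGHS (3 animals) without spelling either name out. The animals were picked at random from each group. What each animal was fed is not used here beyond these names.

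The nuclei kept numbered 4830, 8097 and 6911 in the MGNS animals 1, 2 and 3 and 5407, 6376 and 10201 in the MGHS animals 1, 2 and 3. The labels call the material rumen epithelial cells, while 13630 of 41822 nuclei were in the classes named keratinocyte-like by marker genes. Another 5724 were in the unnamed cluster 0, led by keratins and upper-layer genes. The remaining nuclei were mostly lymphocytes, fibroblasts and vascular cells. Clustering used variable genes from which the 79 genes had been removed, and 12 classes were fitted. A class needed at least 20 nuclei in every animal, and an unnamed cluster also needed over 5% of all nuclei. The unnamed clusters 12 and 18 (3.05% and 1.77% of nuclei) were left out by the second rule. Basal-like nuclei were cluster 1, spinous-like cluster 5, granular-like cluster 2 and cycling keratinocyte-like cluster 10. The spinous-like cluster had 6 of 9 spinous markers and 8 of 16 granular markers at 2-fold or more over the other nuclei, so it lies between these layers by its markers. Cluster 0 stayed unnamed, since its median nucleus held 606 UMIs (unique molecular identifiers, the unit of the counts) against 7326 in basal-like, 10034 in spinous-like and 9058 in granular-like nuclei. Its leading named genes were keratins and upper-layer genes (KRT36, LY6D, KRT13 and KRTDAP), and it had 6 of 16 granular and 4 of 9 spinous markers at 2-fold or more. It made up 13.7% of nuclei, and MGHS 3 supplied 3365 of its 5724. Libraries shared between 19 and 49 cell barcodes per pair. Barcodes with under 300 genes, which were left out, held 21.5% to 36.8% of each library's barcodes. Their summed nuclear level of the 66 genes was 12247, 9244 and 12025 CPM in MGNS 1 to 3 and 10125, 12341 and 18185 CPM in MGHS 1 to 3.

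Among the 11 named classes fitted, oxidative phosphorylation genes were highest in cycling and basal keratinocyte-like nuclei and lowest in granular-like nuclei, and the unnamed cluster 0 was higher still. Levels are given as CPM, a gene's UMIs divided by all UMIs of the class in that animal, on the usual counts-per-million scale, and as means ± SD of 6 animals. The 66 nuclear genes summed to 19455 ± 3058 CPM in cycling, 17553 ± 3374 in basal-like, 8891 ± 1332 in spinous-like and 2015 ± 738 in granular-like nuclei. In basal-like nuclei the sum was 16722, 11555 and 18349 CPM in MGNS 1, 2 and 3 and 18393, 18502 and 21795 CPM in MGHS 1, 2 and 3. In granular-like nuclei it was 2321, 1428 and 2094 CPM in MGNS and 1343, 1602 and 3302 CPM in MGHS. Every animal's basal-like sum lay above every animal's granular-like sum. Within an animal the basal-like level was 9.32 ± 2.75 times the granular-like one, with a range of 6.60 to 13.7. The step from basal-like to spinous-like nuclei was 1.97 ± 0.28 times and that from spinous-like to granular-like nuclei was 4.69 ± 1.01 times.

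Outside the keratinocytes the nuclear sum was 6426 CPM in B or plasma-like, 6348 in T or NK-like, 5581 in macrophage or dendritic-like, 5444 in smooth muscle or pericyte-like, 5309 in lymphatic endothelial-like, 5126 in blood endothelial-like and 3867 in fibroblast-like nuclei. Basal-like nuclei held 2.80 ± 0.50 times the T or NK-like sum and 4.67 ± 0.86 times the fibroblast-like sum of the same animal. The unnamed cluster 0 stood at 22482 ± 1955 CPM, the highest of the 12 classes. For the mitochondrial genes the order outside the keratinocytes differed, with T or NK-like (0.70% of UMIs) and lymphatic endothelial-like nuclei (0.56%) first among the named classes fitted. Among the keratinocyte classes the mitochondrial genes followed the nuclear order with smaller steps. They stood at 13054 ± 3941 CPM in cycling, 13015 ± 4686 in basal-like, 8607 ± 2487 in spinous-like and 2631 ± 693 in granular-like nuclei. Their basal-like level was 4.88 ± 1.26 times the granular-like one, with a range of 3.31 to 6.72. Nuclei with over 10% mitochondrial UMIs had been removed, so the mitochondrial values lie under that ceiling. Mitochondrial transcripts are made in the organelle, and how many of these UMIs came from outside the nuclei was not tested. In the left-out barcodes with under 300 genes the mitochondrial share ranged from 1.36% (MGNS 2) to 9.59% (MGHS 1). Class differences of the mitochondrial genes are therefore less certain as levels of those cells.

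**Figure D1:**
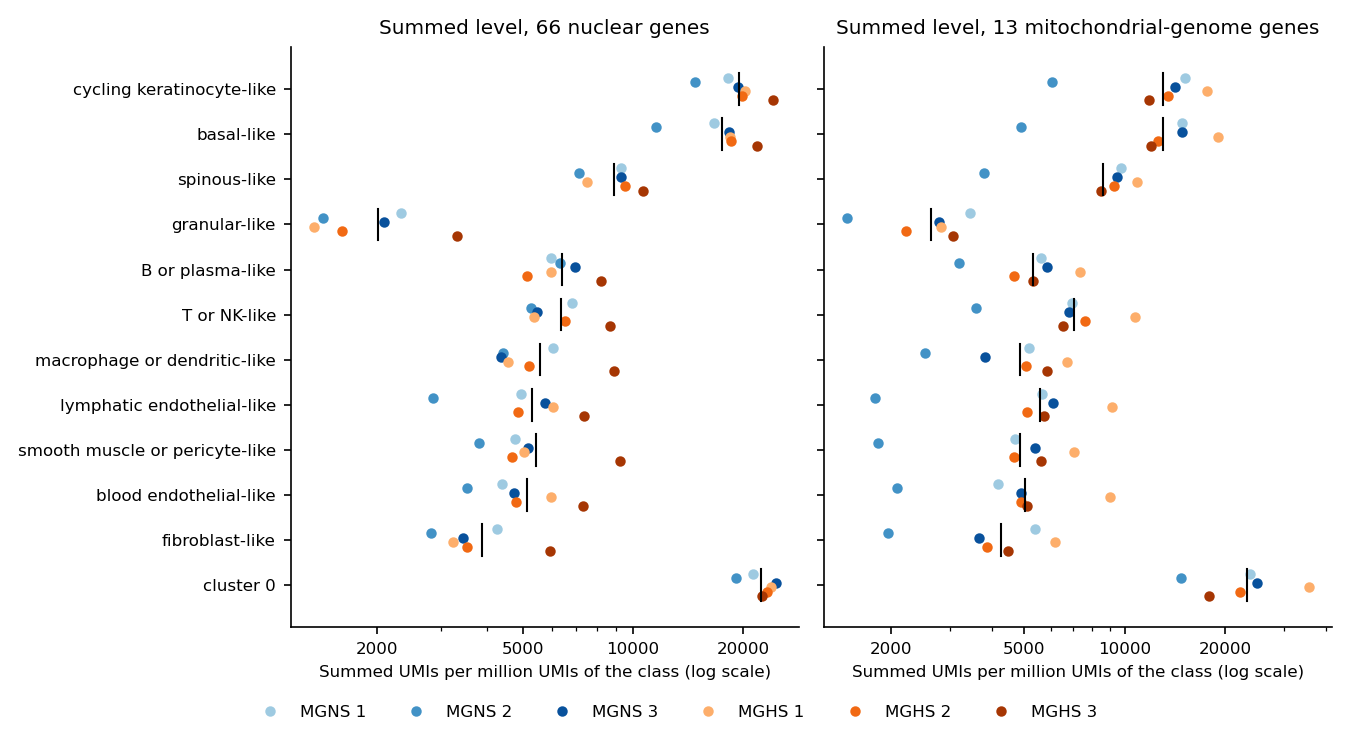
Summed CPM of the nuclear genes (66) and of the mitochondrial genes (13) in each of 12 classes, on log axes, with 1 point per animal coloured by group and a black bar at the mean of 6 animals. Cycling and basal-like keratinocytes and the unnamed cluster 0 lie at the top in both panels, and granular-like nuclei lie at the bottom.

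By gene, 58 of 66 nuclear members had their highest mean in cycling keratinocyte-like nuclei among the 11 named classes, and 64 of 66 had their lowest in granular-like nuclei. Each class was compared with the mean of the others in edgeR's quasi-likelihood test with the animal as a block and Benjamini-Hochberg adjustment over 15829 genes, a gene being called at adjusted p under 0.05. The classes were clustered from these same nuclei, so the calls are a description. They set the gaps between classes against the spread left once each animal's own level is taken out. In basal-like nuclei 64 nuclear members were higher and 1 lower, where 36.6% of all genes were called higher. In cycling nuclei 63 were higher and 1 lower (34.2% of all genes higher), and in spinous-like nuclei 56 were higher and 3 lower (35.4% higher). In cluster 0, 64 were higher and 1 lower (30.6% higher). Granular-like nuclei went the other way, with 59 lower and 2 higher, where 43.6% of all genes were lower.

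The stromal and vascular classes were also on the low side. Of the 66 nuclear genes 63 were lower in fibroblast-like nuclei (37.9% of all genes lower), 63 in smooth muscle or pericyte-like nuclei (30% lower), 60 in blood endothelial-like nuclei (29.1% lower), 61 in lymphatic endothelial-like nuclei (25.4% lower) and 56 in macrophage or dendritic-like nuclei (30.8% lower). In T or NK-like nuclei 6 were higher and 29 lower (37.7% of all genes higher and 28.9% lower), and in B or plasma-like nuclei 7 were higher and 23 lower (26.3% higher and 23.4% lower). Of the 13 mitochondrial genes, 12 were higher in basal-like, 13 in cycling and 13 in cluster 0 nuclei, and 10 were lower in granular-like nuclei. In T or NK-like nuclei 6 mitochondrial genes were higher and 0 lower, where 37.7% of all genes were higher.

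**Figure D2:**
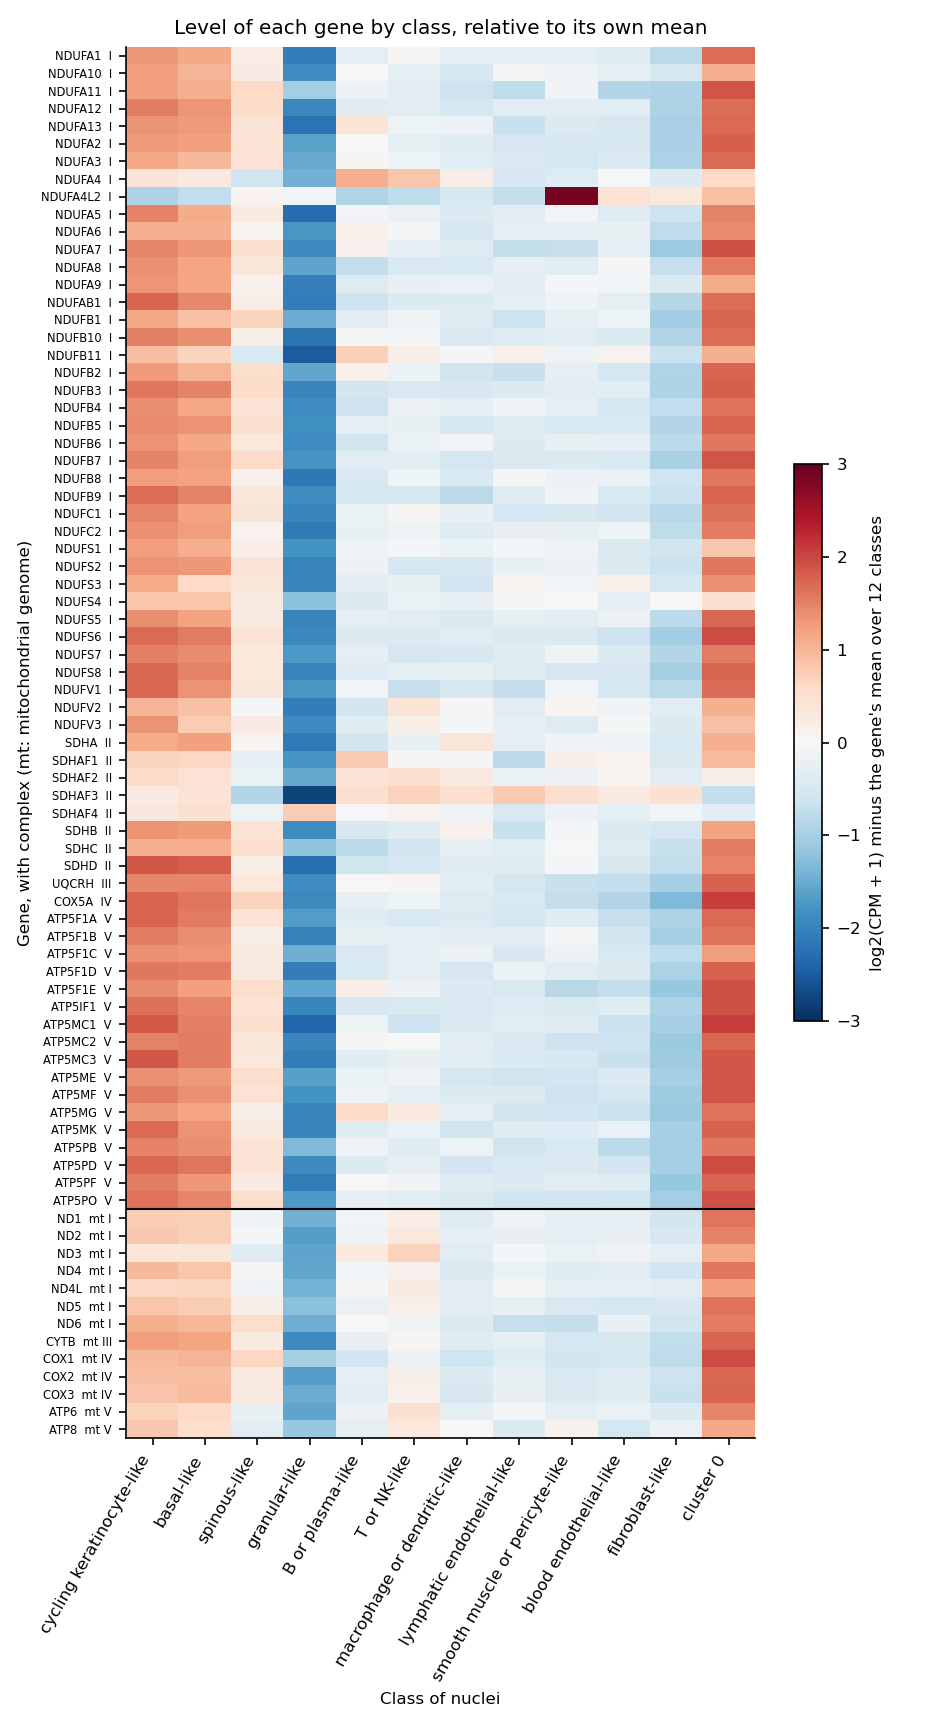
Each gene's log2(CPM + 1) in 12 classes, as the mean of 6 animals minus the mean of that gene over the classes, with the 79 genes ordered by genome and complex. The cycling, basal-like and cluster 0 columns are above the gene means for nearly all rows, the granular-like column is below them, and NDUFA4L2, SDHAF3 and SDHAF4 depart from this order.

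The 4 keratinocyte classes were then fitted together to compare layers, with contrasts chosen after the class levels had been seen. The unnamed cluster 0, led by keratins and upper-layer genes, was left out of this fit and of the sums over keratinocyte-like nuclei. Its nuclear sum lay above those of all 4 classes, so the fall described here covers the named layers only. Fold changes are edgeR values scaled by TMM, a factor that centres each sum on the bulk of its genes, and the same test and threshold were used with 6 animals in each layer. From basal-like to spinous-like nuclei 61 of 66 nuclear genes were lower and 1 higher, where 31.2% of all genes were lower. The median nuclear log2 change was -0.73 against -0.04 over all genes. From spinous-like to granular-like nuclei 62 were lower and 1 higher (35.9% of all genes lower), with a median of -1.20 against -0.09. Between the ends, granular-like against basal-like, 63 were lower (44% of all genes lower) and 2 were higher (38% of all genes higher), with a median of -1.96 against -0.19. All 13 mitochondrial genes were lower in granular-like than in basal-like nuclei, with a median of -0.93.

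The size of this difference depends on the scaling. With library size alone, an alternative chosen after seeing the data, the median of all genes from basal-like to granular-like nuclei moved to -1.52 and the nuclear median to -3.28, while the nuclear median less the median of all genes was -1.77 with either scaling. Of all genes tested, 66.5% were then called lower, against 44% with TMM, and 65 of the 66 nuclear genes were called. The CPM ratios above are on the library-size scale and the log2 changes below are on the TMM scale. In nuclei, fewer transcripts of a gene and more transcripts of other genes cannot be told apart from CPM.

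**Figure D3:**
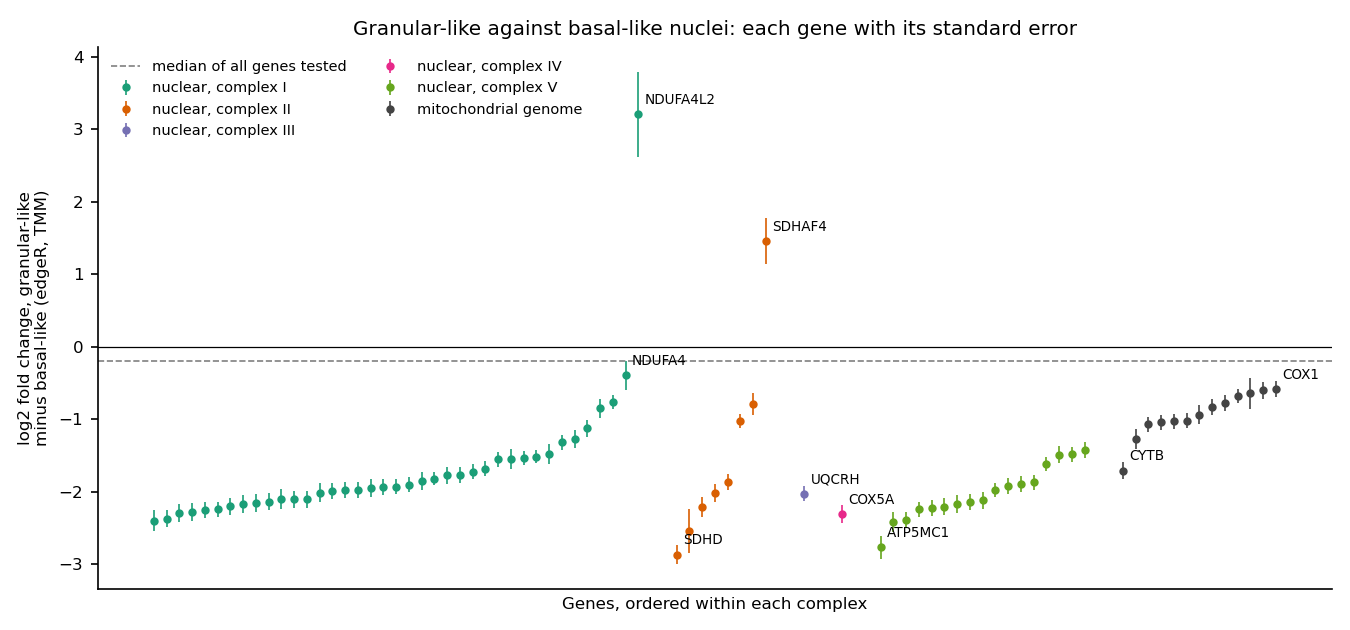
Log2 fold change of each gene in granular-like against basal-like nuclei, with its standard error, grouped by genome and complex, from edgeR with 6 animals per class. The dashed line is the median of all genes tested (-0.19), and only SDHAF4 and NDUFA4L2 lie above 0.

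Complex I, the NADH dehydrogenase, was lower in granular-like nuclei for 37 of the 38 nuclear subunits named for it, with a median of -1.93. The exception was NDUFA4, which biochemical work places with complex IV and which is described below. The accessory subunit NDUFS5 stood at 299, 194 and 314 CPM in MGNS 1 to 3 and 323, 296 and 307 CPM in MGHS 1 to 3 in basal-like nuclei. In granular-like nuclei it stood at 43.9, 23.5 and 27.8 CPM in MGNS and 22.6, 24.0 and 44.8 CPM in MGHS. MGNS 2 was lowest among the basal-like sums, and every granular-like value was below every basal-like one (log2 -1.90 ± 0.11 SE, edgeR adjusted p = 5.7e-13). NDUFA1, an accessory subunit of the membrane arm, fell from 270 ± 50.8 to 28.3 ± 12.5 CPM (log2 -1.98 ± 0.11 SE). Among the subunits that carry the flavin and the iron-sulphur clusters, NDUFV1 fell by 1.93, NDUFV2 by 1.72, NDUFS1 by 1.68, NDUFS7 by 1.93 and NDUFS8 by 2.26 on the log2 scale. The mitochondrial acyl carrier protein NDUFAB1 showed the largest drop of the complex I genes (-2.40 ± 0.14 SE).

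NDUFS4, an accessory subunit next to the NADH-oxidising module, changed far less. It stood at 254, 260 and 295 CPM in MGNS and 270, 282 and 253 CPM in MGHS in basal-like nuclei, a narrow range. In granular-like nuclei it stood at 71.9, 64.8 and 67.6 CPM in MGNS and 54.7, 40.2 and 80.5 CPM in MGHS. The log2 change was -0.76 ± 0.10 SE (edgeR adjusted p = 3.6e-07). In the gene table NDUFS4 overlaps a long non-coding RNA, so its counts are less certain. NDUFS3, a core subunit, and NDUFB1 did not pass the test from basal-like to spinous-like nuclei (-0.03 ± 0.13 SE and -0.01 ± 0.11 SE) and were lower only at the next step (-1.45 ± 0.14 SE and -1.12 ± 0.12 SE). The difference between these 2 steps was not tested.

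Complex II, the succinate dehydrogenase that also belongs to the citrate cycle, was lower in granular-like nuclei for all 4 subunits, with a median of -2.04. SDHD, a membrane anchor, had the largest drop of all 79 genes. It stood at 365, 265 and 410 CPM in MGNS and 353, 419 and 360 CPM in MGHS in basal-like nuclei, and at 21.4, 14.4 and 27.0 CPM in MGNS and 11.2, 16.1 and 31.7 CPM in MGHS in granular-like nuclei. The animals did not overlap between the layers, and the log2 change was -2.87 ± 0.13 SE (edgeR adjusted p = 2.9e-14). SDHD overlaps a pseudogene in the gene table. The flavoprotein SDHA went from 109 ± 11.7 to 9.82 ± 5.01 CPM (-2.21 ± 0.14 SE) and the iron-sulphur subunit SDHB from 256 ± 32.7 to 28.6 ± 10.5 CPM (-1.86 ± 0.11 SE). SDHC, the other anchor, went from 169 ± 29.3 to 33.7 ± 11.9 CPM, a smaller change (-1.03 ± 0.10 SE).

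For complexes III and IV a single nuclear gene each was followed, counting by gene name. UQCRH, the hinge protein of complex III, stood at 1064, 810.5 and 1159 CPM in MGNS and 1086, 1326 and 1366 CPM in MGHS in basal-like nuclei. It stood at 528, 435 and 518 CPM in MGNS and 387, 582 and 642 CPM in MGHS in spinous-like nuclei, and at 115, 89.1 and 120 CPM in MGNS and 67.5, 96.9 and 194 CPM in MGHS in granular-like nuclei. The 3 layers did not overlap in any animal, and granular-like differed from basal-like nuclei by -2.03 ± 0.10 SE (edgeR adjusted p = 1.1e-13). COX5A, a subunit of cytochrome c oxidase, stood at 563, 326 and 673 CPM in MGNS and 730, 736 and 981 CPM in MGHS in basal-like nuclei. In granular-like nuclei it stood at 61.2, 27.6 and 57.3 CPM in MGNS and 29.6, 44.0 and 124 CPM in MGHS (-2.31 ± 0.12 SE, edgeR adjusted p = 3.5e-13). MGHS 3 was the highest animal for COX5A in both layers and MGNS 2 the lowest.

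Complex V, the ATP synthase, was lower in granular-like nuclei for all 16 nuclear subunits, with a median of -2.05. The genes ATP5MC1, ATP5MC2 and ATP5MC3 encode the same mature proton-carrying c subunit behind different import sequences. ATP5MC1 went from 294 ± 68.1 CPM in basal-like to 143 ± 37.2 in spinous-like and 19.2 ± 14.4 in granular-like nuclei (-2.76 ± 0.16 SE between the ends). ATP5MC3 stood at 853, 647 and 1151 CPM in MGNS and 1051, 1092 and 1667 CPM in MGHS in basal-like nuclei, and at 72.2, 56.6 and 80.2 CPM in MGNS and 49.6, 55.0 and 206 CPM in MGHS in granular-like nuclei. MGHS 3 was again highest in both layers, and the log2 change was -2.42 ± 0.13 SE (edgeR adjusted p = 5.7e-13). ATP5MC2 changed by -2.24 ± 0.11 SE, from 573 ± 108 to 49.7 ± 18.9 CPM.

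The catalytic head and its regulators moved with the c subunits. ATP5F1A and ATP5F1B, the alpha and beta subunits, changed by -1.98 ± 0.10 SE and -2.15 ± 0.11 SE. ATP5F1E, the epsilon subunit, changed by -1.48 ± 0.10 SE (568 ± 161 to 80.3 ± 27.8 CPM) and ATP5MG, a membrane subunit, by -1.87 ± 0.11 SE (641 ± 152 to 72.1 ± 32.3 CPM). ATP5IF1, which inhibits ATP hydrolysis by the enzyme, stood at 376, 205 and 441 CPM in MGNS and 477, 456 and 563 CPM in MGHS in basal-like nuclei. It fell with the subunits it acts on, to 38.1 ± 21.4 CPM in granular-like nuclei (-2.21 ± 0.12 SE, edgeR adjusted p = 3.1e-13).

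Cycling and basal-like keratinocytes were close. The cycling nuclei held 1.12 ± 0.08 times the summed nuclear CPM of basal-like nuclei, with a range of 1.06 to 1.28. In edgeR, 3 of 66 nuclear genes were higher in cycling nuclei and 0 lower, where 13.7% of all genes were called in either direction. They were the complex I genes NDUFV3 (0.52 ± 0.09 SE), NDUFS3 (0.45 ± 0.13 SE) and NDUFV1. None of the 13 mitochondrial genes was called, and 0 had an unadjusted p under 0.05.

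**Figure D4:**
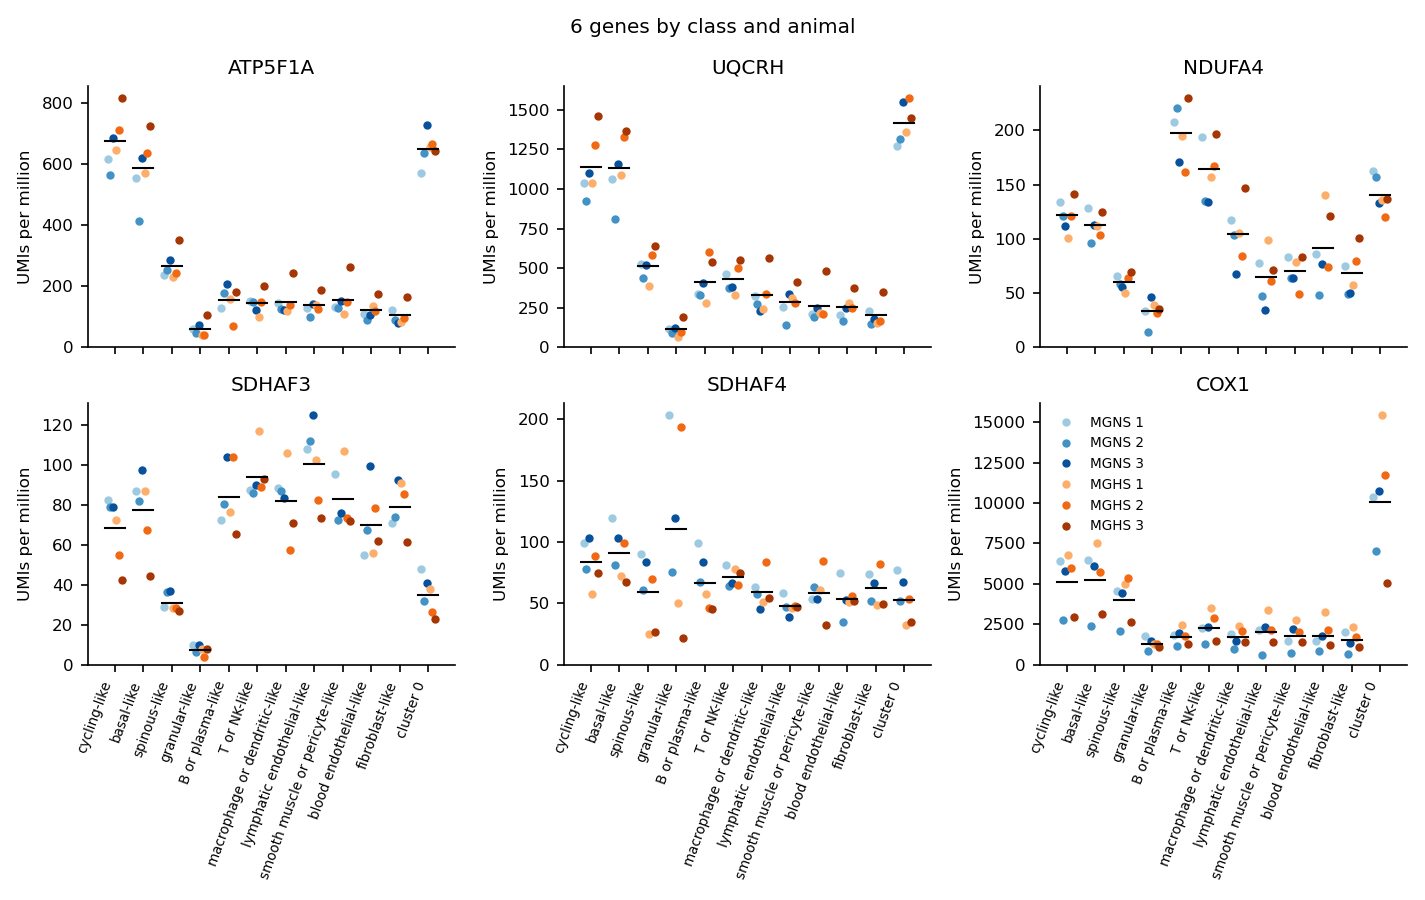
CPM by class of ATP5F1A, UQCRH, NDUFA4, SDHAF3, SDHAF4 and COX1, with 1 point per animal coloured by group. ATP5F1A and UQCRH follow the common order, NDUFA4 peaks in lymphocytes, SDHAF3 has its highest mean in lymphatic endothelial-like nuclei, and SDHAF4 spreads widely between animals in granular-like nuclei.

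A few genes departed from the common order. NDUFA4, named for complex I and placed by biochemical work with complex IV, was highest in B or plasma-like nuclei, at 208, 220 and 171 CPM in MGNS and 195, 161 and 230 CPM in MGHS. T or NK-like nuclei held 164 ± 27.2 CPM, basal-like nuclei 113 ± 12.2 CPM and granular-like nuclei 33.4 ± 10.9 CPM. Both lymphocyte classes were above the mean of the other classes (log2 1.19 ± 0.13 SE, edgeR adjusted p = 4.7e-12, and 0.91 ± 0.12 SE, edgeR adjusted p = 1.2e-09), while their own values overlapped between animals. From basal-like to granular-like nuclei NDUFA4 did not pass with TMM (-0.40 ± 0.20 SE, edgeR adjusted p = 0.073), and it passed with library size alone (-1.78). It also passed without MGHS 1 (-0.53, adjusted p = 0.024) or without MGHS 2 (-0.51, adjusted p = 0.048).

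NDUFA4L2, a hypoxia-inducible paralog of NDUFA4, was at the limit of detection in keratinocytes, at 0.19 ± 0.19 CPM in basal-like nuclei. In smooth muscle or pericyte-like nuclei it stood at 2.98, 10.3 and 15.7 CPM in MGNS and 28.7, 7.55 and 16.7 CPM in MGHS, and no other named class had a mean above 1.71 CPM, that of blood endothelial-like nuclei. The class difference was 4.22 ± 0.43 SE (edgeR adjusted p = 4.2e-13). It rests on 55 UMIs, and in the gene table NDUFA4L2 overlaps other genes. Its calls between keratinocyte layers rest on 8 UMIs in basal-like, 38 in spinous-like and 34 in granular-like nuclei.

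The assembly factors of complex II did not move as a set. SDHAF2, which helps attach the flavin to SDHA, was lower in granular-like than in basal-like nuclei by a small margin (-0.79 ± 0.16 SE, 27.3 ± 4.23 to 6.27 ± 1.99 CPM). SDHAF1, which serves the iron-sulphur subunit, was low everywhere and changed by -2.55 ± 0.30 SE on 21 UMIs in granular-like nuclei. SDHAF3, which also serves SDHB, stood at 100 ± 19.1 CPM in lymphatic endothelial-like and 93.7 ± 11.6 CPM in T or NK-like nuclei, which overlapped, at 77.6 ± 18.9 in basal-like, 30.9 ± 4.52 in spinous-like and 7.56 ± 2.28 in granular-like nuclei. It was higher than the mean of the other classes in T or NK-like (0.79 ± 0.08 SE), lymphatic endothelial-like, B or plasma-like, macrophage or dendritic-like and fibroblast-like nuclei. It was lower in spinous-like nuclei (-0.86 ± 0.10 SE) and in cluster 0 (-0.44 ± 0.11 SE), where nearly all other nuclear members were higher.

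SDHAF4, a chaperone for flavinated SDHA, was the only nuclear member whose highest mean among the 11 named classes lay in granular-like nuclei, at 204, 75.9 and 119 CPM in MGNS and 50.7, 194 and 21.8 CPM in MGHS. The animals spanned a wide range there, and the groups overlapped. Basal-like nuclei held 119, 81.5 and 104 CPM in MGNS and 72.7, 99.5 and 67.8 CPM in MGHS, and spinous-like nuclei 59.5 ± 27.9 CPM. With TMM SDHAF4 was higher in granular-like than in basal-like nuclei (1.46 ± 0.31 SE, edgeR adjusted p = 0.00024), and with library size alone it was not (0.04 ± 0.25 SE, adjusted p = 0.87). FAM135A, its neighbour in the gene table, stood at 388 ± 89.7 CPM in basal-like, 2284 ± 495 in spinous-like and 5775 ± 1167 in granular-like nuclei (5.28 ± 0.28 SE, edgeR adjusted p = 3.1e-13). Whether reads from FAM135A entered the SDHAF4 count was not tested.

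The mitochondrial genes fell by unequal amounts from basal-like to granular-like nuclei. CYTB, the catalytic subunit of complex III, changed most (-1.71 ± 0.12 SE). It stood at 2341, 649 and 2839 CPM in MGNS and 2148, 1972 and 2871 CPM in MGHS in basal-like nuclei, and at 311, 116 and 301 CPM in MGNS and 191, 174 and 432 CPM in MGHS in granular-like nuclei. COX1, the catalytic subunit of complex IV, was at the other end (-0.59 ± 0.11 SE, edgeR adjusted p = 5.3e-05), from 5224 ± 2005 to 1292 ± 303 CPM. The 7 complex I genes had a median of -0.93 (ND6 -1.27 to ND3 -0.60), COX2 and COX3 changed by -1.07 and -1.04, and the ATP synthase genes ATP6 and ATP8 by -0.83 and -0.64. ATP8 overlaps ATP6 and ND4L overlaps ND4 on the mitochondrial genome, so these counts are less certain. The share of COX1 in the mitochondrial protein-gene UMIs went from 40.9% ± 8.1 in basal-like to 47.3% ± 9.4 in spinous-like and 50.3% ± 8.8 in granular-like nuclei, while that of CYTB went from 16.5% ± 4.5 to 13.2% ± 4.7 and 9.42% ± 2.71.

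T or NK-like nuclei had another composition. COX1 made up 32.7% ± 5.4 of their mitochondrial protein-gene UMIs, ATP6 10.1% ± 2.2 against 5.88% ± 2.32 in basal-like nuclei, and ND3 1.49% ± 0.44 against 0.62% ± 0.12. In the class test ND3 (0.80 ± 0.09 SE) and ATP6 (0.58 ± 0.10 SE) were higher there, as were ND1, ND2, COX2 and ND4L. Beyond class, the composition followed the animal. MGHS 3 had the lowest COX1 share and the highest ATP6 and CYTB shares in all 12 classes, and in basal-like nuclei its COX1 share was 26.0% against 39.5% to 49.5% in the other animals. MGHS 1 had the highest COX2 share in all 12 classes (13.3% in basal-like nuclei, against 4.64% to 7.78%), MGNS 3 the highest ND4 share and MGNS 2 the highest ND5 and lowest COX3 share. In the left-out barcodes with under 300 genes the same animals were at these ends for COX1, ATP6, CYTB, ND4, ND5 and the lowest COX3, while MGHS 3 held the highest COX2 share.

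The next comparison was MGHS against MGNS within classes, with 3 animals in each group. edgeR called no oxidative phosphorylation gene in any of the 14 sums tested. The mean of the nuclear sum was higher in MGHS in 12 of 12 classes, and the animals of the groups did not overlap in 3 of them. Over all keratinocyte-like nuclei the nuclear sum was 11966, 7620 and 11118 CPM in MGNS 1, 2 and 3 and 8364, 10513 and 14525 CPM in MGHS 1, 2 and 3, and the groups overlapped. The log2 ratio of the group means was 0.12. Without MGHS 3 it was -0.12 and without MGNS 2 it was -0.05, so its sign rests on these animals. The mitochondrial sum was 11212, 3692 and 9676 CPM in MGNS and 9571, 7949 and 8505 CPM in MGHS, with a log2 ratio of 0.08 that was -0.27 without MGNS 2.

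Layer shares differed between the groups beside these values. Granular-like nuclei, the class with the lowest levels, were 20.6%, 22.9% and 28.9% of keratinocyte-like nuclei in MGNS and 45.4%, 37.5% and 32.5% in MGHS, with no overlap. In a further sum every animal's class shares of UMIs, not of nuclei, were held at the mean of the 6 animals. The log2 ratio was then 0.27 for the nuclear and 0.29 for the mitochondrial sum. Spinous-like nuclei were 20.4%, 28.0% and 21.5% in MGNS and 15.2%, 10.3% and 15.6% in MGHS. Basal-like nuclei were 50.9%, 44.0% and 40.9% in MGNS and 30.9%, 43.7% and 31.7% in MGHS. Cycling nuclei, with the highest level of the named classes, were 8.03%, 5.13% and 8.69% in MGNS and 8.44%, 8.44% and 20.2% in MGHS, so MGHS 3 stood apart.

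Gene by gene over all keratinocyte-like nuclei, 0 of 78 tested genes were called by edgeR at adjusted p under 0.05, where 0% of 16359 genes were called. At an unadjusted p under 0.05 there were 2 members, where 17.5% of all genes were. DESeq2 and limma voom also called 0 members (4 and 1 at an unadjusted p under 0.05), while DESeq2 called 5.86% of all genes. Of 65 nuclear genes 60 had a fold change above 0, with a median of 0.30 against 0.02 over all genes, and of 13 mitochondrial genes 11 did, with a median of 0.10. The nuclear median was 0.11 without MGNS 2, 0.17 without MGHS 3, 0.10 in limma voom and 0.07 with library size alone, where the median of all genes was -0.23. None of the members had every MGHS animal above every MGNS animal, against 4.98% of all genes.

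The 10 nuclear genes with the smallest p in these sums were all above 0. NDUFB2, an accessory subunit of complex I, stood at 135, 93.9 and 137 CPM in MGNS and 132, 145 and 212 CPM in MGHS (0.64 ± 0.23 SE, edgeR adjusted p = 0.23). MGHS 3 was high, MGNS 2 was low, and the groups overlapped. NDUFA11, a complex I subunit of the membrane arm, followed with 0.71 ± 0.29 SE (edgeR adjusted p = 0.27). The ATP synthase genes ATP5MF and ATP5PF (0.65 ± 0.31 SE and 0.63 ± 0.30 SE) and COX5A (0.63 ± 0.34 SE) had like values with adjusted p of 0.32, 0.32 and 0.37. NDUFB11, NDUFB6, NDUFA6, NDUFB8 and NDUFA8, all accessory subunits of complex I, ranged from 0.31 to 0.58.

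SDHAF3 was on the other side. It stood at 56.0, 47.4 and 53.6 CPM in MGNS and 37.2, 35.2 and 29.4 CPM in MGHS over all keratinocyte-like nuclei, without overlap (-0.36 ± 0.21 SE, edgeR adjusted p = 0.39). The share of all genes without overlap in this direction is not given here, so SDHAF3 cannot be set against it. In basal-like nuclei it stood at 87.0, 82.1 and 97.3 CPM in MGNS and 87.0, 67.5 and 44.4 CPM in MGHS, and there the groups overlapped. Among the mitochondrial genes COX2 (0.88 ± 0.61 SE), ATP6 (0.84 ± 0.57 SE) and COX3 (0.69 ± 0.48 SE) had the highest fold changes, with adjusted p from 0.46 to 0.47. The other 10 lay between -0.06 and 0.28, COX1 at 0.14 ± 0.48 SE and CYTB at 0.28 ± 0.53 SE.

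In single classes edgeR called 0 of 920 member tests. With no filter on low counts it called 20 members (1.11% of all genes), and with the replicate number as a block 1 member (0.261% of all genes). The share of all genes called was 0.0143% in basal-like, 0.0576% in spinous-like, 0.008% in granular-like, 0.00971% in cycling, 0.00845% in T or NK-like, 0.119% in fibroblast-like, 0.0937% in blood endothelial-like, 0.0405% in lymphatic endothelial-like and 0.469% in cluster 0 nuclei, and 0% in the B or plasma-like, macrophage or dendritic-like and smooth muscle or pericyte-like nuclei. At an unadjusted p under 0.05 there were 111 of the 920 (104 of 771 nuclear and 7 of 149 mitochondrial), where 12.1% of all genes were, so the members' share was at the background. There were 30 without MGNS 2 (8.75% of all genes) and 42 without MGHS 3 (11.4% of all genes). DESeq2, which called 1.98% of all genes over the 12 classes, called 3 members, NDUFB6 (adjusted p = 0.039), NDUFB2 (adjusted p = 0.023) and NDUFA11 (adjusted p = 0.040), all in cluster 0, where DESeq2 called 3% of all genes and edgeR gave NDUFB6 an adjusted p of 0.089. Medians of the nuclear genes ran from 0.16 in spinous-like to 0.52 in blood endothelial-like nuclei, and those of the mitochondrial genes from 0.11 in fibroblast-like to 0.44 in blood endothelial-like nuclei.

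**Figure D5:**
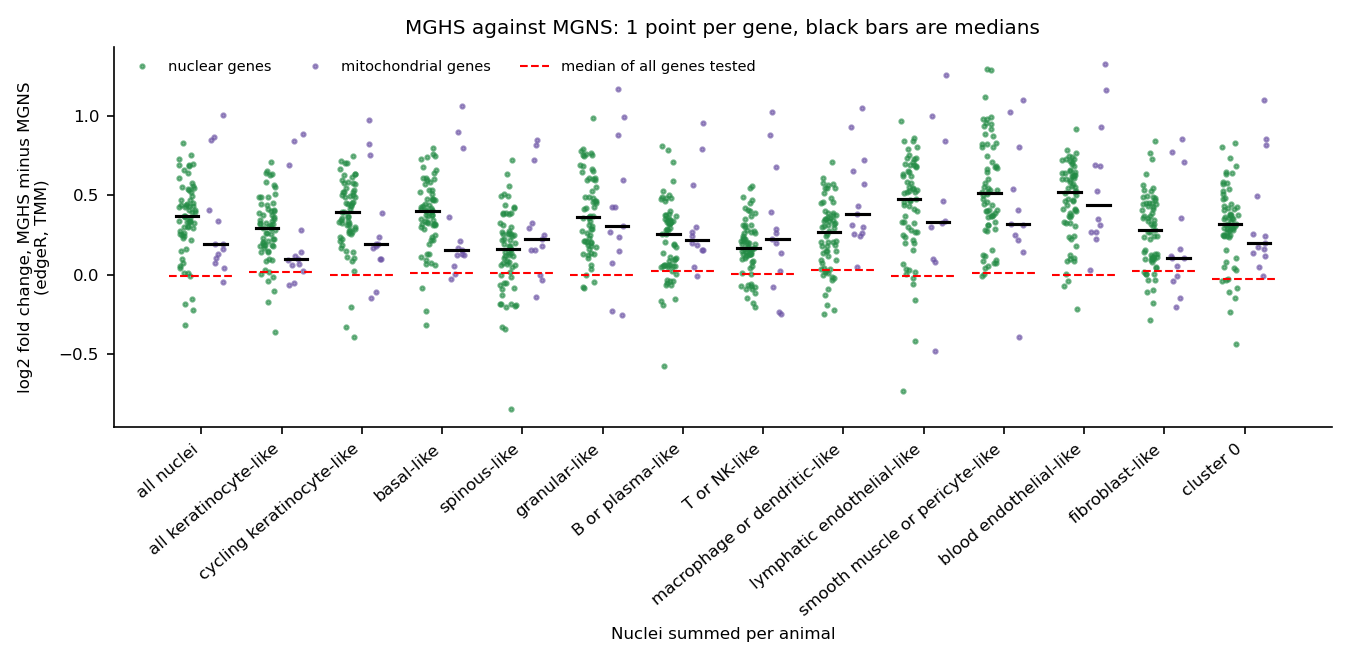
Log2 fold change of MGHS against MGNS for each gene in 14 sums of nuclei (all nuclei, all keratinocyte-like nuclei and 12 classes), nuclear and mitochondrial genes apart, with the median of the genes and, dashed in red, the median of all genes tested. Nuclear medians lie between 0.16 and 0.52, above the medians of all genes, and no gene passed the test.

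The nuclear sums of the groups did not overlap in basal-like, cycling and blood endothelial-like nuclei and overlapped in the other 9 classes. MGNS 3 and MGHS 1 nearly met in basal-like nuclei, as did MGNS 3 and MGHS 2 in blood endothelial-like nuclei. These margins were small beside the spread between animals. The blood endothelial-like sum was 4392, 3534 and 4737 CPM in MGNS and 5976, 4798 and 7321 CPM in MGHS. Gene by gene, every MGHS animal was above every MGNS animal for 17 of 65 nuclear genes in basal-like nuclei (7.81% of all genes), 18 of 64 in cycling nuclei (6.12%) and 19 of 64 in blood endothelial-like nuclei (8.97%). In the other keratinocyte classes this held for 1 of 65 in spinous-like nuclei (6.21% of all genes) and 0 of 64 in granular-like nuclei (4.32%). It held for 2 of 65 in T or NK-like (6.62%), 1 of 64 in B or plasma-like (3.11%), 1 of 64 in macrophage or dendritic-like (8.86%) and 4 of 65 in fibroblast-like nuclei (10.5%). It held for 7 of 64 in smooth muscle or pericyte-like (5.31%), 5 of 63 in lymphatic endothelial-like (7.3%) and 8 of 64 in cluster 0 nuclei (4.57%). The counts follow from the sums and share the same 6 animals, so they are a description and no test. MGHS 3 had the highest nuclear sum in 11 of 12 classes and MGNS 2 the lowest in 9, while the mitochondrial sum was lowest in MGNS 2 in all 12 classes and highest in MGHS 1 in 11.

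NDUFB2 had the smallest p in basal-like nuclei. It stood at 174, 138 and 198 CPM in MGNS and 246, 239 and 293 CPM in MGHS (0.73 ± 0.21 SE, edgeR adjusted p = 0.23). The groups did not overlap, and the same held in spinous-like nuclei, at 122, 88.4 and 148 CPM in MGNS and 179, 184 and 189 CPM in MGHS (0.72 ± 0.23 SE, edgeR adjusted p = 0.26). NDUFA6 was next in basal-like nuclei (0.44 ± 0.16 SE). In cycling nuclei NDUFA11 stood at 127, 119 and 169 CPM in MGNS and 185, 179 and 252 CPM in MGHS (0.72 ± 0.23 SE, edgeR adjusted p = 0.20), again without overlap, and ATP5MF, the f subunit of the ATP synthase, followed (0.75 ± 0.24 SE). In granular-like nuclei NDUFA11 (0.99 ± 0.38 SE) and NDUFS6 (0.67 ± 0.29 SE) came first with adjusted p of 0.25 and 0.29, and both overlapped between the groups.

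The genes with the smallest p outside the keratinocytes were as follows. In blood endothelial-like nuclei COX5A stood at 91.8, 59.0 and 90.4 CPM in MGNS and 128, 122 and 211 CPM in MGHS (0.92 ± 0.25 SE, edgeR adjusted p = 0.27), without overlap. Smooth muscle or pericyte-like nuclei had NDUFS6 (1.29 ± 0.38 SE) and NDUFS3 (1.29 ± 0.40 SE) first, and fibroblast-like nuclei NDUFB6 (0.76 ± 0.29 SE) and NDUFS3 (0.73 ± 0.29 SE). Lymphatic endothelial-like nuclei had ATP5IF1 (0.81 ± 0.33 SE) and NDUFS5 (0.79 ± 0.32 SE), and B or plasma-like nuclei, of which MGHS 2 held 23, NDUFV1 (0.81 ± 0.33 SE) and NDUFS6 (0.79 ± 0.36 SE). Macrophage or dendritic-like nuclei had the mitochondrial genes COX3 (0.93 ± 0.35 SE) and COX2 (1.05 ± 0.42 SE) first, and T or NK-like nuclei NDUFB8 (0.54 ± 0.21 SE) and COX3 (0.88 ± 0.35 SE). None of these passed edgeR's adjustment.

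Over all nuclei 0 of 79 genes were called by edgeR (0% of 18847 genes), with 4 at an unadjusted p under 0.05, where 19.9% of all genes were. DESeq2 and limma voom also called 0 members (15 and 1 at an unadjusted p under 0.05), while DESeq2 called 7.47% of all genes. The nuclear median was 0.37 and the mitochondrial one 0.19, and NDUFB2 (0.68 ± 0.23 SE, edgeR adjusted p = 0.18) and NDUFA11 (0.83 ± 0.30 SE) came first. The response of keratinocyte-like nuclei was also set against that of the other named nuclei in 1 model, and no member was called (0.021% of all genes were). The median difference of responses was 0.21 for nuclear genes, against -0.05 over all genes, and -0.10 with library size alone. NDUFA4L2 had the only unadjusted p under 0.05 (-2.61 ± 0.67 SE, edgeR adjusted p = 0.21).

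Some other measures moved with the groups beside these values, and their part in the results was not tested. In basal-like nuclei the summed level of 16 granular or upper keratinocyte markers ranged from 697 to 903 CPM in MGNS and from 1130 to 1788 CPM in MGHS. The 8 cycling markers ranged from 81.1 to 111 CPM in MGNS and from 165 to 206 CPM in MGHS, and the 15 T or NK markers from 402 to 587 and from 268 to 317 CPM. Over all keratinocyte-like nuclei the granular markers ranged from 7923 to 14242 CPM in MGNS and from 14882 to 25552 CPM in MGHS, 6 neutrophil markers from 4496 to 6108 and from 1238 to 3902 CPM, and 10 fibroblast markers from 81.8 to 90.8 and from 98.6 to 252 CPM. None of the markers of these 5 lists was at 0. The 5 lists are a selection, and among the further lists some overlapped between the groups and some did not. Over all keratinocyte-like nuclei the basal keratinocyte markers overlapped, at 3833 to 4839 CPM in MGNS and 3585 to 5071 CPM in MGHS. The spinous markers did not, at 3500 to 4399 and 2440 to 3167 CPM. The left-out barcodes with under 300 genes overlapped between the groups. Their nuclear sum was 12247, 9244 and 12025 CPM in MGNS and 10125, 12341 and 18185 CPM in MGHS. The mitochondrial share of UMIs in those barcodes was 5.23%, 1.36% and 3.62% in MGNS and 9.59%, 5.69% and 2.26% in MGHS.

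Genes around the respiratory chain were counted in the granular-like against basal-like contrast, where 44% of all genes were lower and 38% higher. The 26 assembly factors, which build the complexes and include SDHAF1 to SDHAF4, had 21 lower and 3 higher in granular-like against basal-like nuclei (median -1.53). LYRM7, which serves the Rieske protein of complex III, changed by -2.69 ± 0.15 SE and NDUFAF4 by -2.77 ± 0.17 SE. Of 74 mitochondrial ribosomal proteins tested, which translate the 13 mitochondrial messages, 69 were lower and 2 higher (median -1.86, MRPS35 -3.30 ± 0.13 SE). Of 32 genes of mitochondrial gene expression 25 were lower and 4 higher (median -1.43), among them the messenger RNA-stabilising pair LRPPRC (-2.27 ± 0.11 SE) and SLIRP (-2.20 ± 0.12 SE). Of 19 citrate cycle genes 15 were lower and 1 higher (median -1.81, DLD -2.43 ± 0.12 SE), and of 24 protein import genes 21 were lower and 2 higher (median -1.97, TIMM44 -2.84 ± 0.14 SE).

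Of 24 genes of electron carriers, ADP/ATP exchange and uncoupling 18 were lower and 1 higher (median -1.51), with the outer membrane channel VDAC1 at -2.72 ± 0.11 SE and COQ8A, which serves coenzyme Q synthesis, at -2.63 ± 0.15 SE. Of 13 regulators tested 9 were lower and 3 higher (median -0.57). The coactivator PPARGC1B (-3.73 ± 0.16 SE) and MYC (-1.94 ± 0.16 SE) were lower, and the fatty acid receptor PPARD was higher (3.14 ± 0.16 SE). All 80 cytosolic ribosomal proteins tested were lower (median -1.51), among them RPL4 (-1.85 ± 0.09 SE) and RPL5 (-1.99 ± 0.10 SE).

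Between MGHS and MGNS none of these lists held a called gene in all keratinocyte-like nuclei, as edgeR called 0 of 16359 genes there. Cytosolic ribosomal proteins had a median of 0.33, with 76 of 80 above 0, and mitochondrial ribosomal proteins 0.29, with 58 of 74 above 0, beside 0.30 for the nuclear oxidative phosphorylation genes. Import genes stood at 0.13 and carriers at 0.19. Citrate cycle genes (-0.04), mitochondrial gene expression (-0.08), assembly factors (-0.17) and regulators (-0.20) had medians below 0. The smallest p in these lists belonged to the assembly factor NDUFAF5 (-1.01 ± 0.21 SE), the translation factor TSFM (0.93 ± 0.19 SE) and the hypoxia factor HIF1A (-1.01 ± 0.21 SE), each with an edgeR adjusted p of 0.14.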

How the data were processed

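The authors deposited 10x Genomics matrices of UMI counts per gene and nucleus, with 8018 to 14366 barcodes and 34418856 to 59997793 UMIs per library. Per the file headers Cell Ranger 8.0.0 made them, while the submitters' processing notes name 2.1.1. For the genome build and intronic reads, the sources used here give nothing. The files name genes by NCBI number, and all 26741 were matched to symbols in a RefSeq gene table.

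Barcodes under 300 genes or over 10% mitochondrial UMIs were left out, the top 0.5% by UMIs and the doublets called by Scrublet were removed, and the nuclei were clustered in scanpy 1.11.5 (2000 variable genes without the members, 30 components, 5 neighbours per library, Leiden resolution 0.8). In 2 libraries, MGNS 1 and MGNS 2, the Scrublet threshold called too few, and the highest scores were removed at 0.8% per 1000 nuclei. That took out 203 nuclei in MGNS 1 and 606 in MGNS 2. The Scrublet call was used in the other MGNS library and in every MGHS library, so doublet removal was not the same in both groups. Clusters were named from marker lists. UMI counts were summed per animal and class, with at least 20 nuclei in each animal, and tested in R 4.3.3 with edgeR 4.0.16 (quasi-likelihood test, TMM, minimum count 10, Benjamini-Hochberg adjustment over all genes tested, threshold 0.05). The group fit had no covariate, and class and layer fits had the animal as a block. DESeq2 1.42.0 and limma 3.58.1 (voom) were alternatives. The fits were also run on simulated counts, with the same dispersion for every gene and no animal effect. That run cannot show how the fits behave with the animal differences seen here.

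The genes named were the members called in a fit, the 10 nuclear genes with the smallest p in all keratinocyte-like nuclei, the 3 nuclear genes of each complex with the highest level, all mitochondrial genes, the 2 with the smallest p in each class, the paralogs and complex II subunits, and the 3 with the smallest p of each further list. Where a fit called many members, examples stand for the rest and were chosen after their values were seen. The members and lists were chosen with earlier results of these data known. Each library is 1 animal, and an exact permutation test of 3 against 3 animals cannot give a p below 0.1.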

Additional observations from a re-analysis of the deposited data

How the results depend on the processing

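Calls were recomputed with other normalizations, tests, filters on nuclei, cluster resolutions and class definitions, and without each animal in turn. edgeR called 0 members between MGHS and MGNS in all keratinocyte-like nuclei, in all nuclei and in the difference of responses under every alternative run for them. Over single classes the count of 0 became 3 in DESeq2 (1.98% of all genes called), 20 with no filter on low counts (1.11% of all genes called, with 12 nuclear and 8 mitochondrial members, 181 at an unadjusted p under 0.05) and 1 with the replicate number as a replicate block (0.261% of all genes called, the member being ATP6 in blood endothelial-like nuclei, 0.99, edgeR adjusted p = 0.042, 179 at an unadjusted p under 0.05), and the cause was not tested. The replicate block changed no other call in all keratinocyte-like or all nuclei. Animals with the same number had correlations of -0.17, -0.05 and 0.04, beside -0.10 to 0.18 in pairs with different numbers. So few pairs cannot show whether the numbers mark a pairing. The log2 ratio of the nuclear sum in keratinocyte-like nuclei ranged from -0.12 (without MGHS 3) to 0.29 when each animal was left out, and was -0.05 without MGNS 2. That of the mitochondrial sum ranged from -0.27 (without MGNS 2) to 0.38. Calls of each class against the others numbered 813 of 948 and ranged from 680 to 836, and granular-like against basal-like calls numbered 65 of 66 and ranged from 64 to 66. Counts in the smallest classes limit the precision, with 55 UMIs behind NDUFA4L2 in smooth muscle or pericyte-like nuclei.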
